A study of Mus with 2 samples.

Results

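Interferon-stimulated genes are the genes that cells switch on after type I or type II interferon, and 42 of them, with chemokine and MHC genes left out, were listed here. A gene was taken as measured when at least 1 of its probes was well above the local background on at least 1 array. This held for 40 of the 42 genes, out of 13529 measured genes on the arrays, and all 40 were above background on both arrays. The other 2, Mx1 and Mx2, did not match a probe through the RefSeq gene table, which lists both as transcribed pseudogenes in the C57BL/6J reference, and they were not analysed here.

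Type I interferons bind the receptor chains Ifnar1 and Ifnar2, and the kinases Jak1 and Tyk2 then activate a complex that holds Stat2 and Irf9 and enters the nucleus to start transcription of interferon-stimulated genes. Interferon gamma acts through Ifngr1 and Ifngr2, and mainly raises Irf1 and the interferon-induced GTPases. Macrophages make many of these transcripts at a low tonic level without infection. Interleukin 4 works through a different factor, Stat6, and pushes macrophages to the alternatively activated (M2) state.

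The arrays came from bone marrow derived macrophages of male C57BL6/J mice, 10 weeks old per the methods, grown for 7 days with 10 ng/mL M-CSF. Both cultures then received 10 ng/mL IL-4 for 24 hr, one with 10 µM GW4064, an agonist of the nuclear bile acid receptor FXR, and the other with its solvent DMSO. Each condition was 1 array, so no replicate error exists, no test was run, and the differences are described by their size, with 2-fold as the threshold. The study's question was how the FXR agonist alters gene expression under M2 conditions; cells given an interferon or left without IL-4 were not analysed here. The free-text description of the GW4064 sample repeats the wording of the DMSO sample, while its title and treatment label say GW4064. Of 4 genes that IL-4 induces in macrophages, Arg1 was read at 4875 with DMSO and 72297 with GW4064 (3.82), Retnla was at 0.91, Chil3 at 0.07 and Mrc1 at -0.34.

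Signals are given as the scanner software's processed signal in arbitrary units, as deposited. Differences are log2 values, GW4064 minus DMSO, after each array was shifted by its 75th percentile, which was 1209 for DMSO and 1265 for GW4064. A ± value is the scanner software's own error estimate for the spots behind a difference, with a median of 0.20 over the 40 genes, and it is not a replicate error. Some spots lay in areas where 2 or more other spots within 300 µm differed 8-fold or more between the arrays. Such areas, called damaged here by this rule alone, covered 16.5% of all spots and held a spot of 12 of the 40 genes. The rule also counts spots below background, and damage itself was not tested. In whole cultures, fewer cells of a type and less RNA per cell cannot be told apart.

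As a set, the interferon-stimulated genes differed little between the arrays. None of the 40 was higher by 2-fold with GW4064, beside 2.04% of all genes measured, and none was lower by 2-fold, beside 2.71% of all genes. Ifit3 and Oasl1 were the only members at least 1.5-fold higher, which is 5% of the members beside 4.39% of all genes. No member was 1.5-fold lower, beside 5.56% of all genes. The 40 differences had a median of 0.03, with quartiles of -0.08 and 0.19, and the median of all genes was 0.01, with quartiles of -0.12 and 0.13. In direction, 24 members were higher and 16 lower, or 60% and 40%, and the same shares of all genes were 51.6% and 48.2%. Centring the arrays on their spike-in controls in place of the percentile moved the median of all genes to -0.16 and turned this split to 11 higher and 29 lower, beside 2749 higher and 10688 lower among all genes.

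**Figure D1:**
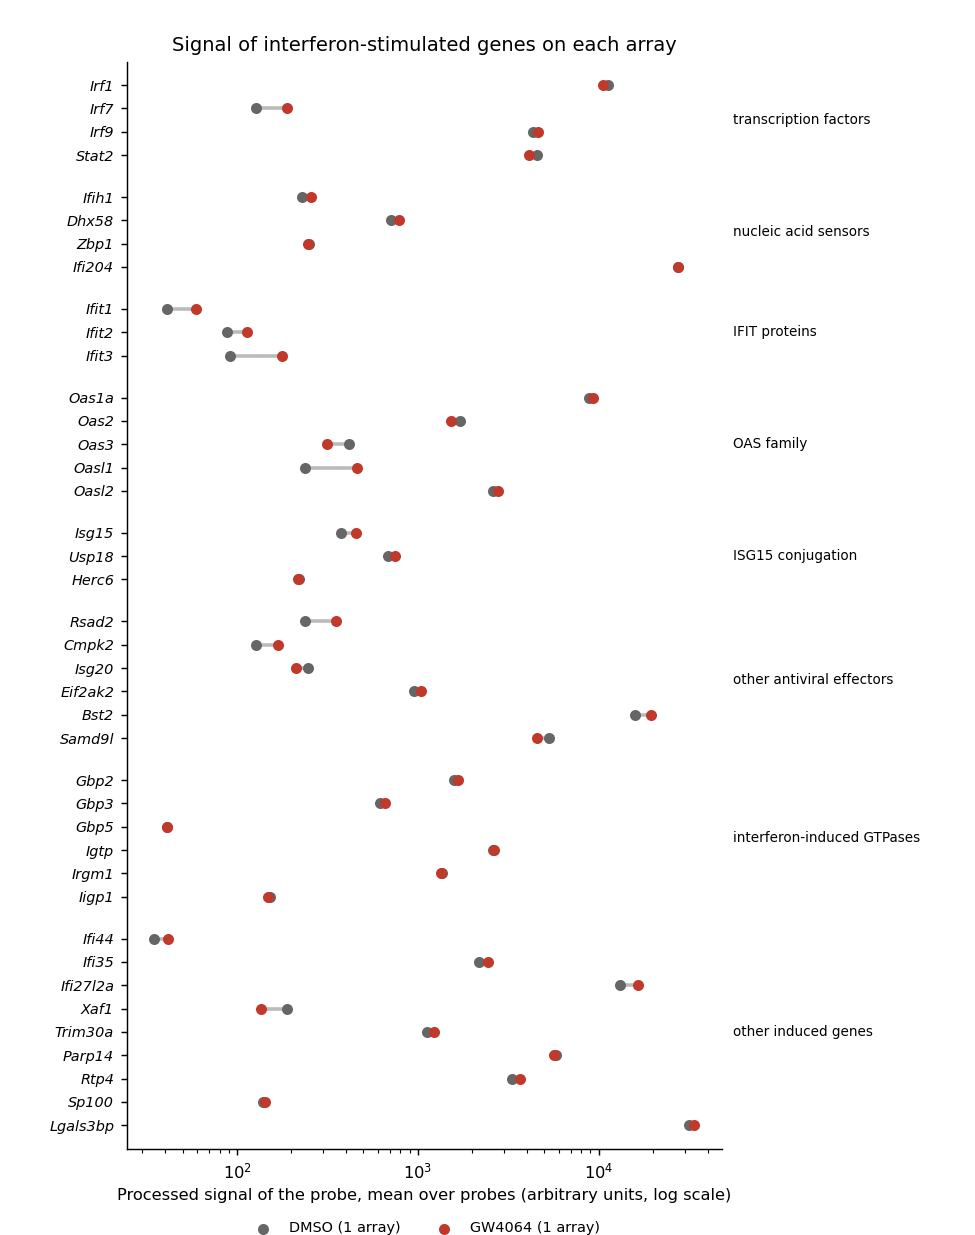
Processed signal of each of the 40 interferon-stimulated genes (vertical axis, grouped by role) on the DMSO array (grey) and the GW4064 array (red), on a log axis in arbitrary units, as the geometric mean over a gene's probes. Most pairs of points nearly coincide, and the wide pairs are Ifit3, Oasl1, Irf7, Ifit1 and Rsad2 toward higher signal with GW4064 and Oas3 and Xaf1 toward lower signal; signals of different genes come from different probes and are not comparable.

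Differences of 0.3 or more, a size set after the values were seen, separated a small group. Irf7, Ifit1, Ifit2, Ifit3, Oasl1, Rsad2 and Cmpk2 were at least that much higher, or 7 of 40 (17.5%, beside 10.7% of all genes). Oas3 and Xaf1 were at least that much lower, or 2 of 40 (5%, beside 11.3% of all genes). The other 31 members were within 0.3 in either direction, and 19 were within 0.1.

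Among the transcription factors, Irf7, the factor that drives induction of the interferon alpha genes, stood apart from the other 3. The Irf7 probe read 127 with DMSO and 190 with GW4064, a log2 difference of 0.51 ± 0.21. It lay between 0.35 and 0.58 under the 12 other processing settings. For a gene read by 1 spot, most of these settings leave the value unchanged or shift all genes by a constant. Stat2 and Irf9 are subunits of the complex that type I interferon activates. Stat2 read 4570 and 4127 (-0.21 ± 0.20), and Irf9 read 4324 and 4631 (0.03 ± 0.20) at a spot in a damaged area. Irf1, the factor induced most directly by interferon gamma, read 11290 and 10623 (-0.15 ± 0.20). Stat2, Irf9 and Irf1 therefore lay within about the size of the software's error, and the difference of Irf7 was more than 2 times that error.

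The sensors of foreign nucleic acid that interferon raises were level between the arrays. Ifih1, which encodes the double-stranded RNA sensor MDA5, was read by a bright probe at 1762 and 1794 (-0.04 ± 0.20) and by a dim one at 29.8 and 36.5 (0.23 ± 0.36). Its helicase partner LGP2, encoded by Dhx58, read 713 and 784 (0.07 ± 0.20). Zbp1, a sensor of Z-form nucleic acid that can start necroptosis, read 75.2 and 80.6 on one probe and 834 and 755 on the other, with opposite signs (0.03 and -0.21). Ifi204, which encodes a DNA-binding protein of the HIN family, read 27519 and 27476 (-0.07 ± 0.20). No sensor differed by more than 0.10 as the mean of its probes.

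The 3 listed IFIT genes, whose proteins bind foreign RNA and block its translation, were all higher with GW4064. Outside the list, Ifit1bl2 read 655 and 739 (0.11 ± 0.20), and Ifit3b and Ifit1bl1 were not well above background on either array. Ifit1 read 41.1 and 59.5 (0.47 ± 0.28), Ifit2 read 87.8 and 113 (0.30 ± 0.22), and Ifit3 read 91.5 and 177 (0.89 ± 0.21, or 1.85-fold). The median of the 3 listed genes, 0.47, lay between 0.25 and 0.54 under the 12 other settings, spike-in centring included. With normexp, a model-based background correction with an added offset of 50, Ifit2 came to 0.00, Ifit1 to 0.25 and Ifit3 to 0.50. The Ifit3 spot lay in a damaged area, with 2 spots that differed 8-fold or more within 300 µm, and the median difference of the 135 spots within 600 µm of it was -0.04. The 3 listed genes lie close together on the chromosome, and each was read by 1 probe at 1 spot.

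The OAS family, oligoadenylate synthetases that activate RNase L and their relatives, split in direction. Oasl1, whose product lacks synthetase activity and holds back translation of Irf7 mRNA, read 237 with DMSO and 458 with GW4064 (0.88 ± 0.21, or 1.85-fold). Its difference ranged from 0.72 to 0.95 under the other settings, its spot was outside the damaged areas, and the median difference of the 136 spots around it was -0.02. Oas3 was lower with GW4064, at 416 and 316 (-0.46 ± 0.21), with a range from -0.63 to -0.31. Oas2 read 1712 and 1517 (-0.24 ± 0.20) at a spot in a damaged area. Oasl2 read 2608 and 2770 (0.02 ± 0.20). The mean of the 2 Oas1a probes was also 0.02, from readings of 22452 and 22695 on one and 3446 and 3846 on the other. Family members thus spanned nearly the whole range of the 40 genes, and the family's median of 0.02 fell below 0 under 5 of the 12 settings.

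Isg15 encodes a ubiquitin-like protein that is joined to other proteins, and Herc6 and Usp18 encode a ligase that attaches it and the protease that removes it. The bright probe of Isg15 read 1730 and 2177 (0.27 ± 0.20) in a damaged area and the dim one read 81.7 and 95.1 (0.15 ± 0.24). The mean, 0.21 ± 0.16, was 0.04 with spike-in centring. Usp18, which also damps signalling at the type I receptor, read 683 and 748 (0.07 ± 0.20). Herc6 was read at 215 and 222 on one probe and at 224 and 211 on the other, with a mean of -0.08 ± 0.15.

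Of the other antiviral effectors, Rsad2 and Cmpk2 were higher and Isg20 and Samd9l were lower. Rsad2 encodes viperin, which turns CTP into a chain-terminating nucleotide, and read 238 and 353 (0.51 ± 0.21). Cmpk2, a nucleotide kinase gene beside Rsad2 on the chromosome, read 223 and 334 on one probe (0.52 ± 0.21) and 72.7 and 84.5 on the other (0.15 ± 0.23), with a mean of 0.33 ± 0.15. Both stayed above 0 under the 12 other settings, from 0.34 to 0.57 for Rsad2 and from 0.17 to 0.52 for Cmpk2. Isg20, an exonuclease gene, was lower on both of its probes, at 381 and 313 (-0.35 ± 0.21) and at 159 and 142 (-0.23 ± 0.21). Samd9l, a restriction factor for poxviruses, was likewise lower on both, at 7631 and 6640 (-0.27 ± 0.20) and at 3685 and 3104 (-0.31 ± 0.20). The mean of Samd9l stayed between -0.46 and -0.22 in all 12 settings, and that of Isg20 between -0.46 and -0.23. Bst2, whose product tetherin holds budding virions at the membrane, read 15818 and 19351 (0.23 ± 0.20). Eif2ak2, which encodes the RNA-activated kinase PKR, read 947 and 1039 (0.07 ± 0.20) in a damaged area. The median of these 6 genes, 0.15, was -0.02 with spike-in centring.

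**Figure D2:**
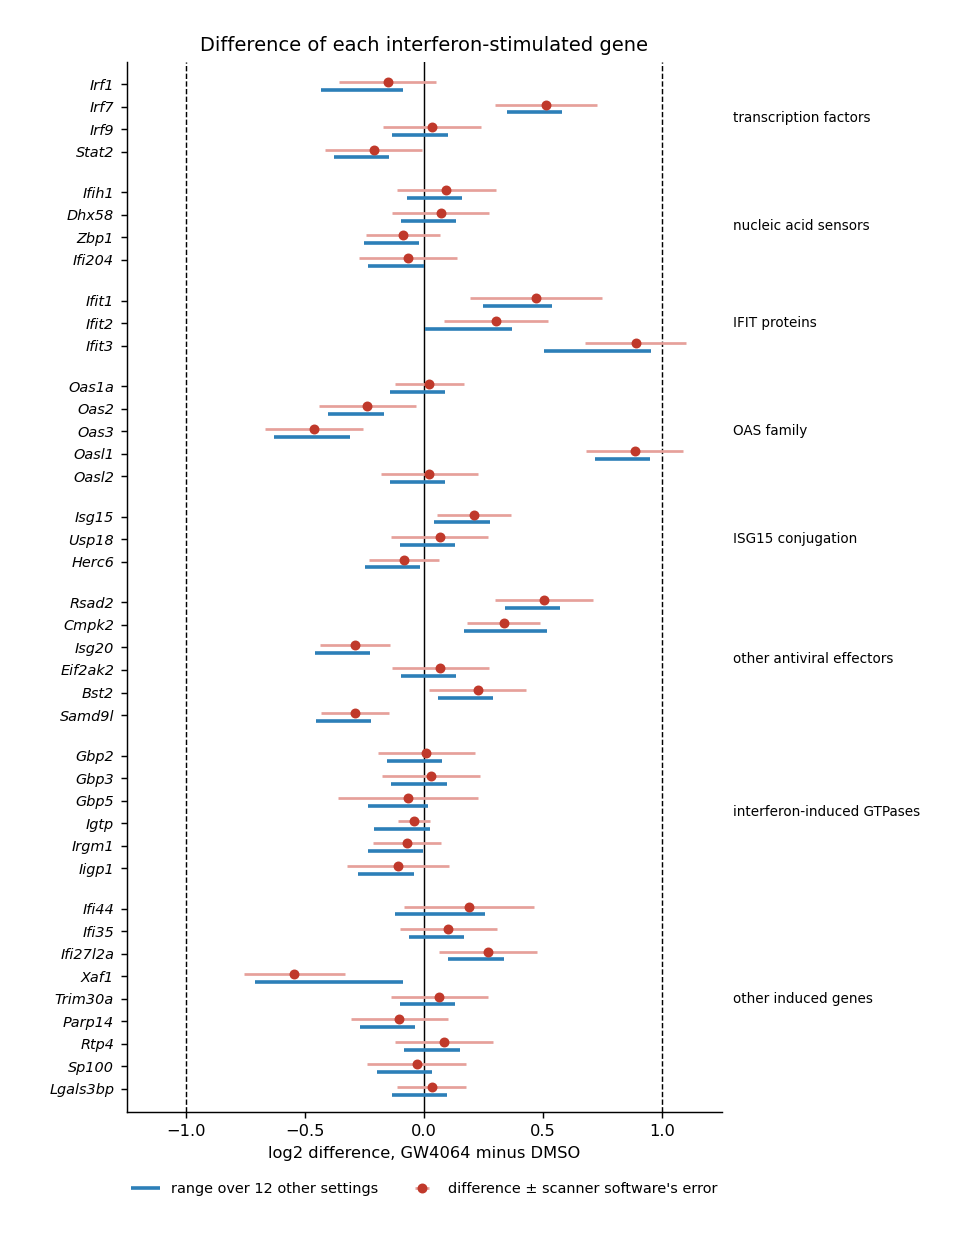
Log2 difference, GW4064 minus DMSO, of each of the 40 interferon-stimulated genes (red points) with the scanner software's error (pink lines) and the range over the 12 other processing settings (blue lines). Dashed lines mark 2-fold; Ifit3 (0.89) and Oasl1 (0.88) come nearest to it and Xaf1 (-0.55) is the lowest.

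The 6 listed interferon-induced GTPases, which attack the vacuoles of intracellular pathogens and respond mainly to interferon gamma, were level between the arrays. The 3 listed guanylate-binding proteins Gbp2 (1577 and 1660), Gbp3 (614 and 656) and Gbp5 (40.9 and 40.8) differed by 0.01, 0.03 and -0.07. The immunity-related GTPases Igtp (2599 and 2641), Irgm1 and Iigp1 (153 and 148) differed by -0.04, -0.07 and -0.11. Irgm1 was read at 2747 and 2855 on one probe and at 669 and 639 on the other. The dim Gbp5 spot (± 0.29), the dimmer Irgm1 spot and at least 1 copy of the Igtp probe lay in damaged areas. Without such areas Irgm1 was at -0.01 and Igtp at -0.06, and Gbp5 had no value. All 6 listed genes lay between -0.11 and 0.03 with these spots kept. GTPases outside the list were less level. Gbp7 was at -0.43, Gbp9 at -0.24 and Irgm2 at -0.01. Gm4951 was at 0.48, Gbp6 at 0.17 as the mean of its probes, Ifi47 at 0.17, Tgtp2 at 0.11 and Gbp10 at 0.05. The Igtp probe was printed 10 times on each array, and its 9 usable pairs of copies had an SD of 0.07 around a mean of -0.05, close to the median SD of 0.08 over all 244 such probes above background.

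The remaining induced genes held 1 large disagreement between probes. Xaf1, which encodes an antagonist of an apoptosis inhibitor, had a mean difference of -0.55 ± 0.21, but its bright probe read 1047 and 1029 (-0.09 ± 0.20) and its dim one read 33.7 and 17.7, close to 2-fold lower. The dim spot lay in a damaged area with 6 spots that differed 8-fold or more, and without such areas Xaf1 was at -0.09. Ifi27l2a, a gene known for strong induction by type I interferon, read 13075 and 16484 (0.27 ± 0.20), with a range from 0.10 to 0.33. Ifi44 read 34.6 and 41.3 (0.19 ± 0.27) and came to -0.12 with normexp. The other 6 genes lay between -0.10 and 0.10. Ifi35 (2166 and 2432), Rtp4 (3319 and 3681) and Trim30a (1124 and 1229) differed by 0.10, 0.08 and 0.06, all at spots in damaged areas. Sp100, a gene of nuclear bodies, read 139 and 142 (-0.03). Parp14, whose product is a coactivator of Stat6, read 5801 and 5647 (-0.10). Lgals3bp, a secreted glycoprotein gene, read 22767 and 24485 on one probe and 43940 and 46752 on the other, with a mean difference of 0.03.

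Members with 2 measured probes gave a view of how far a single spot can stray. There were 11 such genes, with a median gap between probes of 0.13. All 3419 genes with 2 or more measured probes also had a median gap of 0.13, from lowest to highest probe. The largest gap among the 11 was 0.91, for Xaf1. In 3 of the 11 (Ifih1, Zbp1 and Oas1a) the probes had opposite signs, as in 1253 of the 3419. The 3419 include genes with more than 2 probes, which can widen the gap and make opposite signs likelier. The other 29 members were read by 1 probe, among them Irf7, the 3 IFIT genes, Oasl1, Oas3 and Rsad2. Only Cmpk2 of the 7 higher genes had a second probe. Differences over 2 times the software's error were found for 5 higher members (Irf7, Ifit3, Oasl1, Rsad2 and Cmpk2) and 3 lower ones (Oas3, Samd9l and Xaf1). By single probes these were 5 of 51 higher, or 9.8%, beside 4.08% of all probes, and 2 of 51 lower, or 3.92%, beside 4.75%.

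The larger differences lay among dim probes. With a boundary at a mean signal of 500, chosen after the values were seen, 18 members were dimmer and 22 brighter. All 7 higher and both lower members named above were dim. Among dim members, 38.9% were at least 0.3 higher and 11.1% at least 0.3 lower, beside 17.7% and 20.1% of the 5875 dim genes. Ifit3 and Oasl1 made 2 of 18 dim members (11.1%) at least 1.5-fold higher, beside 8.41% of the dim genes and 1.31% of the bright ones. None of the 22 bright members reached 0.3 in either direction, beside 5.38% and 4.56% of the 7654 bright genes. The bright members ranged from -0.29 to 0.27 with a median of 0.03, and the dim ones had a median of 0.14.

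**Figure D3:**
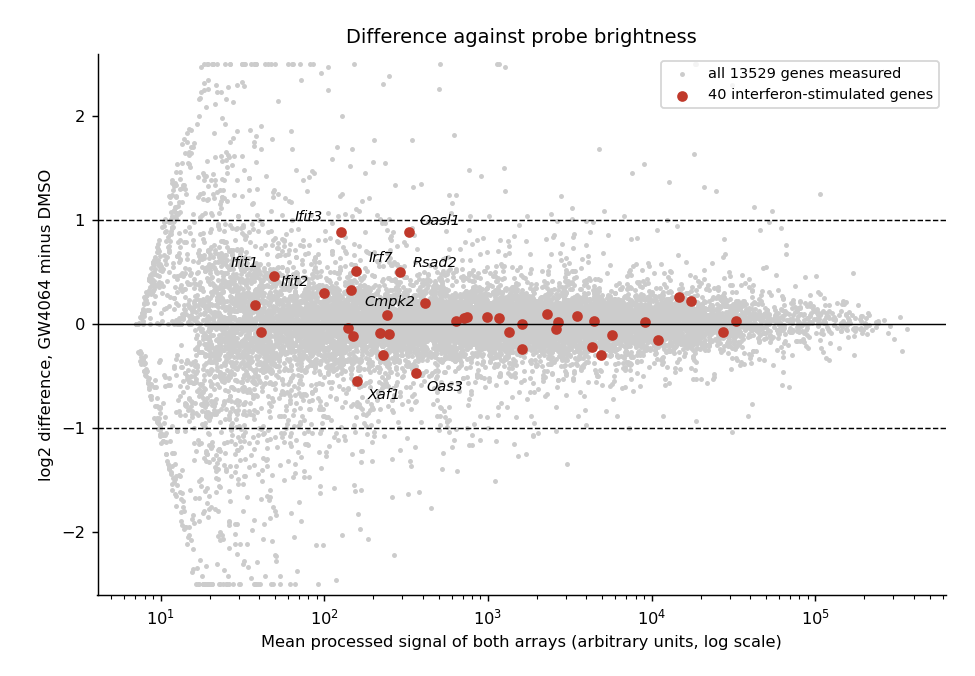
Log2 difference, GW4064 minus DMSO, against the mean processed signal of both arrays (log axis, arbitrary units) for all 13529 genes measured (grey) and the 40 interferon-stimulated genes (red); genes beyond the vertical axis are drawn at its edge. All members lie inside the dashed 2-fold lines, and the named ones (Ifit3, Oasl1, Irf7, Rsad2, Ifit1, Cmpk2, Ifit2, Oas3 and Xaf1) lie at signals under 500, where the grey points spread most.

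Chromosomal neighbours were compared by gene order in RefSeq, with members at most 5 genes apart taken as neighbours. There were 5 such neighbourhoods with 12 members. Differences ran from 0.30 to 0.89 over Ifit1, Ifit2 and Ifit3, from 0.33 to 0.51 over Rsad2 and Cmpk2, and from -0.07 to 0.03 over Gbp2, Gbp3 and Gbp5. Oas2 and Oas3 were both lower (-0.24 and -0.46), and Oasl1 and Oasl2 differed from each other (0.88 and 0.02).

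The genes upstream were examined next. Of 18 genes of interferon receptors and signalling, 17 were measured, 4 higher and 13 lower, with none 2-fold different and a median of -0.06. This split depended on the scaling, with 9 higher and 8 lower without scaling and 0 higher and 17 lower with spike-in centring. By the mean of their probes, the receptor chains lay close to 0, at 0.02 for Ifnar1, 0.09 for Ifnar2 and -0.00 for Ifngr1. Ifngr2 was at 0.07 and Il10rb at 0.15. The brightest Ifnar1 probe read 6045 and 7325 (0.21 ± 0.20), and its other probes were at -0.04 and -0.12. Ifnlr1, the specific chain of the interferon lambda receptor, was not well above background. Among the kinases, Jak2 read 4212 and 3347 (-0.40 ± 0.20), Jak1 was at -0.16 and Tyk2 at -0.14. Stat3 was at -0.13. The feedback inhibitor Socs1, itself induced by interferon and by IL-4, read 3882 and 2814 (-0.53 ± 0.20) at a spot in a damaged area, and Socs3 was at -0.23.

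The interferons themselves gave little signal. Of 20 ligand genes, 16 matched a probe and 8 were measured, most of them dim. Ifnb1 read 3.43 and 3.27, Ifng 4.19 and 4.92 and Ifna4 5.11 and 4.88, none well above background on either array. The 8 measured ligands had a median of -0.04, with Ifna12 at 0.23 and Ifna5 at 0.06, and with Ifna14 at -0.36, Ifnab at -0.24, Ifna1 at -0.06 and Ifna13 at -0.01. Ifnl3 came to 0.13 as the mean of a probe above background on both arrays, at 118 and 114 (-0.11), and a dim one above background with GW4064 only, and its direction turned with the brightest probe. Ifnk was above background with DMSO only and came to 1.82-fold lower with GW4064, but to -0.01 with normexp.

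Among 27 measured genes of nucleic acid sensing and interferon induction, of which 14 were higher and 13 lower (median 0.00), 1 was 2-fold different. This was Ikbke, the kinase that with Tbk1 phosphorylates Irf3 and Irf7, at 325 with DMSO and 1200 with GW4064 (1.82 ± 0.20, and 1.64 with normexp), read by 1 probe outside the damaged areas. Its partner Tbk1 was at -0.11. The next highest were Traf3 (0.34), Irf8 (0.20), Rnaseh2c (0.18) and Irf5 (0.16). At the low end were Samhd1 (-0.36, the same sign on both probes), Irak4 (-0.24), Tlr3 (-0.16) and Tlr8 (-0.10).

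A longer list of other interferon-stimulated genes held 101 names, of which 79 were measured, with 36 higher, 43 lower and a median of -0.02. Ifitm6 was the only one 2-fold or more higher, at 17.5 with DMSO and 56.1 with GW4064, or 3.07-fold. Its DMSO reading was not well above background. With normexp Ifitm6 was at 0.64, and 0 genes of the list were 2-fold different. By the mean of a gene's probes, Ly6a was the only one 2-fold or more lower. It read 112 and 52.7 (-1.15 ± 0.23) in a damaged area, and it was at -0.77 with normexp. The other leading genes were Phf11a (0.85), Ifitm3 (0.68), Phf11b (0.68) and Slfn3 (0.50). Ms4a4c was at 0.58, from a bright probe at -0.25 and a dim one above background with GW4064 only. Ifitm3, which blocks entry of enveloped viruses, was printed 10 times per array with an SD of 0.09 between copies. The lowest after Ly6a were Plac8 (-0.74), Ly6c1 (-0.62), Gbp7 (-0.43) and Epsti1 (-0.40). The bright probe of Ly6c1, outside the damaged areas, read 422 and 214 (-1.05 ± 0.21), and its dim probe, in a damaged area, was at -0.20. With the brightest probe, 2 genes of the list were 2-fold or more lower.

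**Figure D4:**
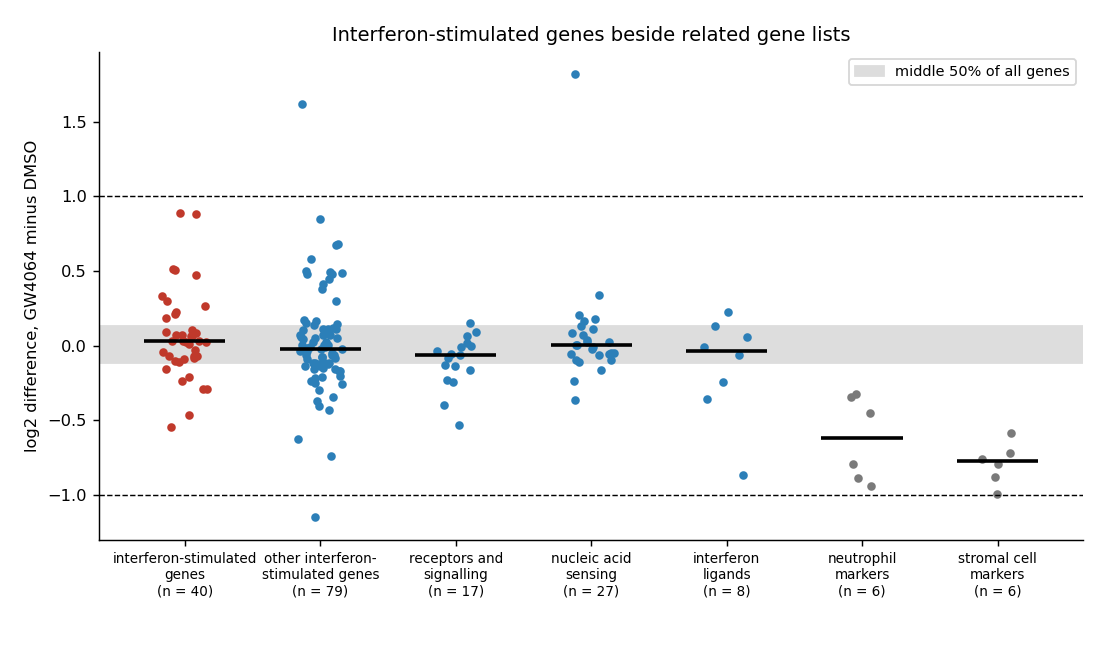
Log2 difference, GW4064 minus DMSO, of each measured gene in the 40 interferon-stimulated genes (red), 4 related lists (blue) and 2 marker lists of other cell types (grey), with the median of each list (black bar), 2-fold (dashed lines) and the middle 50% of all genes (grey band); genes above background on 1 array are at their bound. The medians of the interferon-stimulated genes (0.03) and the 4 related lists sit inside the band, and those of the neutrophil (-0.62) and stromal cell (-0.78) markers sit below it.

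Markers of the cells in culture were read beside these values. The 6 macrophage markers measured had a summed signal of 147134 with DMSO and 141911 with GW4064, with Adgre1 at 44742 and 39339. After scaling, 4 of these 6 were higher and 2 lower, Adgre1 among the lower, with a median of 0.06. The 6 of plasmacytoid dendritic cells, which make interferon alpha, had 65610 and 72036, with 4 of the 6 lower after scaling and a median of -0.02. Siglech was at -0.04, and the list also holds Bst2 (0.23) and Irf8 (0.20). All 6 neutrophil markers were lower (summed signal 13541 and 8776), as were all 6 stromal cell markers (25386 and 14173). For conventional dendritic cells, 2 of 5 markers were measured (34.8 and 116 in sum). The higher sum rested on a Flt3 probe in a damaged area that was not well above background with DMSO. With spots in damaged areas left out, Zbtb46 was the 1 marker measured, at 0.34. Cd209a, Clec9a and Xcr1 were below background on both arrays. For T, B and NK cells, 2 of 6 were measured (319 and 271), with Cd3g, Cd79a and Ncr1 among those below background. Cd3e was higher (0.18). The lower sum rested on a Klrb1c probe, at 175 and 12.3, that was not well above background with GW4064. The other Klrb1c probe, in a damaged area, was at -0.53. The part of these other cells in the differences of the interferon-stimulated genes was not tested.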

How the data were processed

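RNA of 2 cultures, 1 DMSO and 1 GW4064, was hybridised to 1-colour Agilent mouse arrays with 43020 spots and 39429 probes. Both arrays shared a slide and a scan, and no batch test was possible with 1 array per condition. The authors deposited scanner intensity (processed signal, from Agilent Feature Extraction 10.7.1.1 per the labels) and a table of log2 values; their methods name GeneSpring. The deposited log2 differences matched those computed here over 39200 probes to within 2.8e-06 after a constant offset of 0.0022, and the baseline on which the table was centred is unknown.

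Log2 processed signal was shifted by each array's 75th percentile. Control spots and spots marked non-uniform or as outliers among copies were left out, and copies and then probes of a gene were averaged. A probe above background on 1 array was set at a bound. For this, its other reading was raised to the lowest level above background on that array, or kept where already higher. Probes were above background at 57.4% (DMSO) and 58.5% (GW4064), from signals of 15.7 and 15.1, and 0 were saturated. Accessions were named through the RefSeq gene table of another genome build, so no coordinates are given, and promoter sequences were not analysed here. Python 3.11.15, pandas 2.3.3, statsmodels 0.14.6, R 4.3.3 and limma 3.58.1 were used, and the scripts were tested on simulated data.

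The members and gene lists were chosen with earlier results of these data known. All members were named, together with receptors, JAK kinases and STATs, and the 5 highest and 5 lowest genes of each other list, except for items that are not reported here. Genes below background on 1 array, the feedback inhibitors, the copied probe and other genes named singly were added after their values were seen. Alternatives were quantile, median, loess and spike-in scaling, no scaling, normexp (offset 50), the deposited table, marked spots kept, both arrays above background, no filter, the brightest probe, damaged areas left out, and thresholds of 1.5-fold and 4-fold.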

Additional observations from a re-analysis of the deposited data

How the results depend on the processing

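No paired analysis was possible because DMSO and GW4064 had 1 array each, and no array could be left out. The count of members past 2-fold was 0 in both directions under all settings run; with 1.5-fold as the threshold, 2 members were higher and 0 lower. Spike-in centring gave 11 members higher, 29 lower and a median of -0.14, which was 0.02 relative to the median of all genes. Under the other settings 18 to 26 members were higher, 14 to 19 lower, and the median lay between 0.00 and 0.10. Leaving out damaged areas left 32 members, since Irf9, Ifit3, Oas2, Eif2ak2, Gbp5, Ifi35, Trim30a and Rtp4 had no other spot. Apart from spike-in centring, which lowered all members by the same amount, 31 of the 40 members kept their direction under every setting that gave a value. For a member with 1 spot per array, only quantile and loess scaling and normexp could move the value other than by a constant. Irf1 and Iigp1 each had a second probe below background, and with no filter on dim probes they came to -0.44 and -0.14. Normexp moved 4 of the 40 single differences by more than their software error and the brightest probe 2. Spike-in centring moved 10, no filter on dim probes 1, and leaving out damaged areas 1 of the 32 left. Dim probes limit the precision, as do 29 of 40 members read by 1 probe.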
